A study of Rattus norvegicus with 6 samples.

Results

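10 genes of the TNF superfamily were examined in CD163+ macrophages of the rat brain: the ligands *Tnf*, *Tnfsf10*, *Tnfsf13b*, *Tnfsf9* and *Ltb* and the receptors *Tnfrsf1a*, *Tnfrsf1b*, *Tnfrsf12a*, *Fas* and *Cd40*. They were chosen by symbol, and 9 of the 10 had a probe set that names exactly 1 gene, among 14217 genes with such a probe set. *Tnfsf13b* (BAFF), a survival factor for B cells, had none and has no value here. The cells were CD11b+CD163+ perivascular and meningeal macrophages, also called border-associated macrophages (BAMs), sorted from the dissociated right hemisphere of male adult Sprague-Dawley rats. Controls were non-ischemic rats 63, 68 and 69. The ischemia group was rats 64, 65 and 66, in which the middle cerebral artery was occluded for 1 h and reperfused for 16 h. Each rat gave 1 Affymetrix array, so n = 3 per group, and no control was paired with an ischemic rat. Whether the controls had sham surgery is not given in the sources used here, and a sort on CD11b and CD163 also takes any infiltrating cell that carries both.

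TNF superfamily ligands are made mostly as trimeric membrane proteins, some of which are shed, and they cluster receptors on the same or a neighbouring cell. Receptors with a death domain (TNFR1, encoded by *Tnfrsf1a*, and Fas among them) can start caspase-dependent death or necroptosis, whereas those that bind TRAF adaptors (TNFR2, encoded by *Tnfrsf1b*, CD40 and Fn14) act mainly through NF-kB and MAP kinases. In the brain, macrophages and microglia are a source of TNF after injury, and TNF acts on endothelium, neurons and glia.

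Values are log2 values of robust multi-array average (RMA) intensities, and differences are ischemia minus control, with the standard error (SE) of limma's linear model. A gene was called at an adjusted p under 0.01. The level below which a probe set could not be told from background was set at 7.88. Below it lay 90% of the measurements of 38 genes listed as those of other tissues, so it is an empirical level. A control mean above it was found for 4 of those 38, among them *Ttr* (8.78 to 13.40 over the 6 arrays) and *Myh1* (12.79 to 13.22). Such bright genes raise the level, so a value just under it may still hold signal. All 9 measured BAM markers had means above that level in both groups, and none was called; their median difference was -0.76, with *Ms4a7* nearest to a call (-1.02, adjusted p = 0.0109). Being above the level does not tell cell types apart here, since 4 of 5 microglia, 6 of 6 oligodendrocyte and 5 of 6 astrocyte markers were above it in controls too. Some genes listed as markers of other cells moved with ischemia, and their counts stand beside 16.8% higher and 5.99% lower of all tested genes. Which cells these changes came from was not tested. Of 6 tested monocyte markers 5 rose, with a summed level (log2 of the summed intensities of the list's probe sets) of 12.39 to 13.32 in controls and 14.61 to 15.68 after ischemia. Of 6 tested granulocyte markers 3 rose, with a summed level of 10.17 to 10.70 in controls and 11.31 to 12.83 after ischemia. *Mmp9* and *S100a8*, which are among the 3, entered the test only through their ischemic arrays. *Mpo* and *Ltf* had no probe set. Of 5 tested lymphocyte markers 1 rose and 2 fell (11.46 to 11.73 against 10.81 to 11.25), of which *Cd5* entered the test only through its control arrays. Of 4 tested microglia markers 1 fell (12.99 to 13.17 against 11.36 to 12.38), and of 6 oligodendrocyte markers 2 fell (13.19 to 14.30 against 11.91 to 12.65). Of 5 tested astrocyte markers 1 rose (10.47 to 12.33 against 11.48 to 11.95), of 4 tested neuron markers 1 fell (10.47 to 11.44 against 9.33 to 9.96), and of 5 tested endothelial markers none was called (10.93 to 12.68 against 10.99 to 11.38). Array 63 reached a highest value of 13.85 where the other arrays reached 14.88 to 14.96, and its mean over ribosomal protein genes was 12.58 against 13.23 to 13.48. The same rat stood apart on some vessel and astrocyte markers, named after their values were seen: *Cldn5* was 10.52 against 6.09 to 7.84 in the other rats, and *Aqp4* was 10.18 against 7.68 to 8.48.

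Of the 9 measured members, 3 changed after ischemia. The death ligand *Tnfsf10* fell, the receptors *Tnfrsf12a* and *Fas* rose, and the other 6 measured members, *Tnf* and both of its receptors included, did not pass the test. The counts of 2 higher and 1 lower among 9 tested stand beside 16.8% of the 9928 tested genes called higher and 5.99% called lower. On arrays recentred on ribosomal protein genes all tested genes split into 399 higher and 1329 lower, against 1664 and 595 as deposited, and 1 member was higher and 1 lower. At these shares the counts are no result about the family as such. The median log2 difference was 0.11 over the 9 members and 0.105 over all tested genes. The groups did not overlap for 4 of the 9 (*Tnfsf10*, *Tnfsf9*, *Tnfrsf12a* and *Fas*), against 55.6% of tested genes (35.7% with ischemia higher and 19.9% with it lower). *Tnfsf10* was also the only member past the study's stated rule, which adds a log2 fold change beyond 2; that rule called 0.584% of tested genes lower and 1.63% higher.

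**Figure D1:**
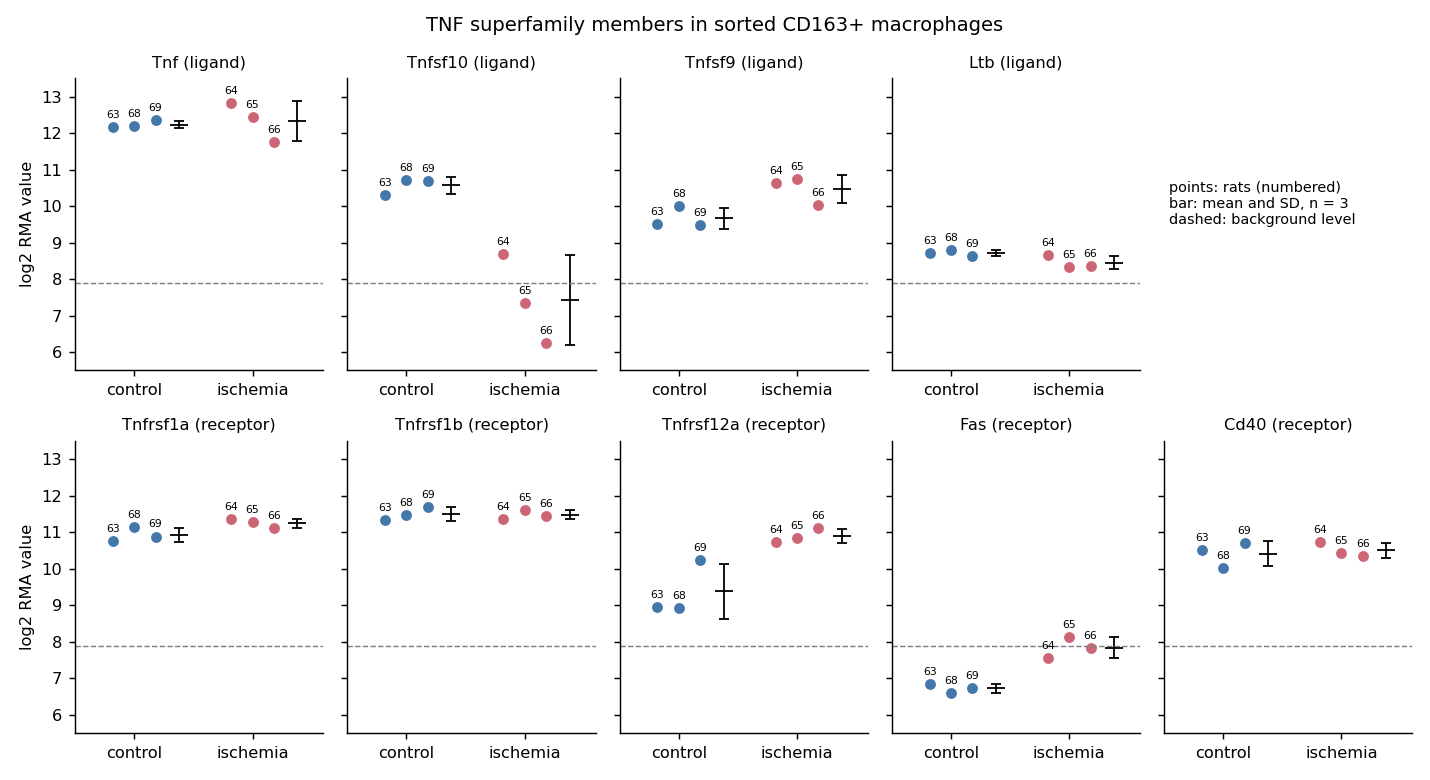
Log2 RMA value of the 9 measured TNF superfamily members in each rat (points, numbered by rat; blue control, red ischemia), with mean and SD (n = 3) and the background level of 7.88 as a dashed line. *Tnfsf10* lies lower in all 3 ischemic rats, *Tnfrsf12a* and *Fas* lie higher in all 3, and the values of *Tnf* spread from 11.75 to 12.84 after ischemia around those of controls.

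*Tnfsf10* encodes TRAIL, a ligand that triggers apoptosis through death receptors of the DR4/DR5 type and is a known interferon-induced gene. Its log2 value was 10.30, 10.73 and 10.68 in control rats 63, 68 and 69, and 8.69, 7.34 and 6.24 in ischemic rats 64, 65 and 66. Every ischemic rat lay below every control, and rats 65 and 66 lay below the background level while rat 64 did not. The mean fell from 10.57 ± 0.23 (SD, n = 3) to 7.42 ± 1.23 (SD, n = 3), a difference of -3.15 as measured (SE 0.52, 95% interval -4.34 to -1.95, adjusted p = 0.0028). Since 1 of the 3 ischemic arrays lay above the background level, the size of the mean difference is given as a bound. With the others held at that level, the *Tnfsf10* mean was at least 5.35-fold lower. This bound covers dim values only and takes no account of the spread between rats. In a sorted pool, fewer cells of a type and less RNA per cell cannot be told apart. T cells also make TRAIL, and their part in this fall was not tested. The T cell markers *Cd3e* and *Cd3g* read at most 5.49 in every rat of both groups, and *Cd3d* read 6.28 to 7.31. The tested lymphocyte markers went both ways, with *Cd7* and *Cd5* lower by 3.12 and 1.05, *Cd2* higher by 1.58, and *Cd3d* (0.34) and *Cd79b* (-0.06) not past the test. The call rests on few rats: the adjusted p was 0.0117 without control 63, 0.0144 without control 68, 0.0113 without control 69 and 0.0109 without ischemia 65, with differences of -3.28, -3.07, -3.09 and -3.10, against 0.000221 without ischemia 64 (-3.78) and 0.00364 without ischemia 66 (-2.55).

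The 250 bases before the RefSeq start of *Tnfsf10* (build GRCr8, chr2:112136689-112136938, plus strand) are shown because this was the member with the largest change. Capitals mark ACGTG, the core letters of a hypoxia response element, found 96 to 92 bases before the start. These letters occur on either strand in 16.6% of 33469 RefSeq promoters of this length, and none of the other 7 members with a promoter sequence here had them.
Tnfsf10: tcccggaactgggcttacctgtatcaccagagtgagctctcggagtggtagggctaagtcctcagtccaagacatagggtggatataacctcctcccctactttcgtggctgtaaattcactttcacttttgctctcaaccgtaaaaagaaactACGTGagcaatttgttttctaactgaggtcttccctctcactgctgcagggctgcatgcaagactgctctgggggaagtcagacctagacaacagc

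The other ligands did not pass the test. *Tnf*, the founding cytokine of the family, had log2 values of 12.16, 12.19 and 12.35 in controls 63, 68 and 69, and 12.84, 12.44 and 11.75 in ischemic rats 64, 65 and 66. Controls were tight, and the ischemic rats fell on both sides of them, with rat 64 highest and rat 66 lowest of all 6. The difference was 0.11 (SE 0.25, 95% interval -0.47 to 0.69, adjusted p = 0.75), so the interval leaves room for a modest change either way, and without ischemia 64 the sign turned (-0.14). A second probe set of *Tnf* read 9.98, 10.23 and 10.22 in controls and 10.82, 10.47 and 10.02 after ischemia, with the same placing of rats 64, 65 and 66. Its difference was 0.29 (SE 0.21, adjusted p = 0.289 over all probe sets tested). Both probe sets thus placed the groups over each other.

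*Tnfsf9* encodes 4-1BBL, the ligand of the costimulatory receptor 4-1BB, which the gene *Tnfrsf9* encodes. It read 9.50, 10.001 and 9.48 in controls and 10.63, 10.75 and 10.04 after ischemia. All ischemic rats were higher, but rat 66 exceeded control 68 by 0.036 only. The difference was 0.81 (SE 0.23, 95% interval 0.29 to 1.33, adjusted p = 0.0224). *Ltb*, which encodes the membrane anchor of lymphotoxin heterotrimers, read 8.72, 8.81 and 8.62 in controls and 8.65, 8.33 and 8.35 after ischemia. Ischemic rats 65 and 66 lay under all controls while rat 64 lay among them, and the difference of -0.27 (SE 0.14, 95% interval -0.59 to 0.049, adjusted p = 0.152) did not pass.

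**Figure D2:**
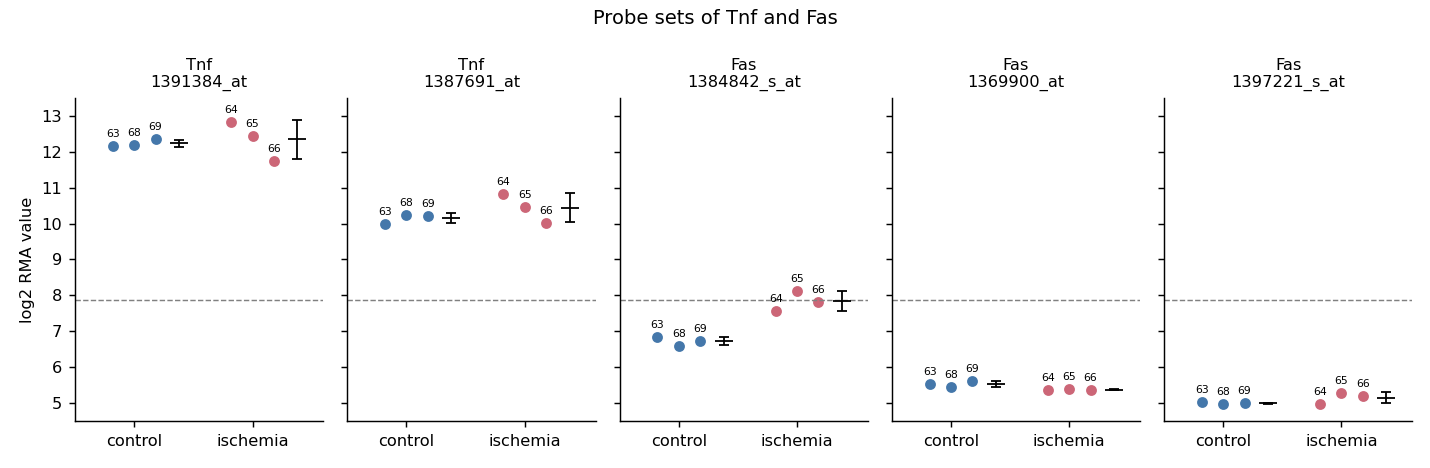
Log2 RMA value in each rat for the 2 probe sets of *Tnf* and the 3 of *Fas* (points numbered by rat; blue control, red ischemia; bars mean and SD, n = 3; dashed line the background level of 7.88). Both *Tnf* probe sets have rat 64 highest and overlapping groups, and only 1 of the *Fas* probe sets reaches the background level in any rat.

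Among the receptors, *Tnfrsf12a* had the largest rise. It encodes Fn14, the receptor of TWEAK (*Tnfsf12*), which binds TRAF adaptors and is known as an injury-induced gene. It read 8.96, 8.94 and 10.25 in controls 63, 68 and 69, and 10.73, 10.85 and 11.12 in ischemic rats 64, 65 and 66. The ischemic rats were close together and above all controls, and control 69 stood apart from the other controls, nearer to the ischemic rats. The mean rose from 9.38 ± 0.75 (SD, n = 3) to 10.90 ± 0.20 (SD, n = 3), by 1.52 (SE 0.33, 95% interval 0.75 to 2.29, adjusted p = 0.00874) or 2.86-fold. Without control 69 the difference was 1.95 (adjusted p = 0.0012). The call was lost without each of the other rats: the adjusted p was 0.035 without control 63, 0.0351 without control 68, 0.0128 without ischemia 64, 0.0262 without ischemia 65 and 0.0292 without ischemia 66, with differences of 1.31, 1.29, 1.602, 1.54 and 1.41. It was also lost when dim genes were kept (adjusted p = 0.0184), after a second quantile normalization (0.0164) and under robust moderation (0.0135).

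*Fas* encodes the death receptor that binds Fas ligand and recruits FADD and caspase-8. Its probe set of highest mean read 6.83, 6.60 and 6.73 in controls and 7.56, 8.13 and 7.82 after ischemia. The groups were apart by 0.73, but only rat 65 rose above the background level of 7.88. The mean rose from 6.72 ± 0.12 (SD, n = 3) to 7.84 ± 0.28 (SD, n = 3), by 1.12 (SE 0.17, 95% interval 0.73 to 1.5004, adjusted p = 0.0019). It entered the test only through its 3 ischemic arrays, the controls being below the low-signal limit of 7.16, and with no such limit the adjusted p was 0.00364. On arrays recentred on ribosomal protein genes the difference was 0.69 and did not pass (adjusted p = 0.0537). The other probe sets of *Fas* were too dim to test: 1 read 5.53, 5.44 and 5.62 in controls and 5.37, 5.38 and 5.37 after ischemia, and the other 5.01, 4.98 and 4.99 against 4.98, 5.27 and 5.19. The rise therefore stands on 1 probe set of 3, and with both group means under the background level no fold is given.

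The 250 bases before the RefSeq starts of *Tnfrsf12a* (GRCr8, chr10:13213649-13213898, minus strand) and *Fas* (GRCr8, chr1:241211905-241212154, plus strand) are printed since these were the members that rose. Capitals mark matches, on either strand, to the GC box GGGCGG, the AP-1 element TGANTCA and the NF-kB consensus. *Tnfrsf12a* had 4 GC boxes within the 88 bases before its start, 2 of them side by side, and no match to AP-1 or NF-kB. *Fas* had an NF-kB match 242 to 233 bases before its start, an AP-1 match at 205 to 199 and a GC box at 47 to 42. The GC box occurs in 30.5% of the 33469 promoters, AP-1 in 6.34% and the NF-kB consensus in 4.24%.
Tnfrsf12a: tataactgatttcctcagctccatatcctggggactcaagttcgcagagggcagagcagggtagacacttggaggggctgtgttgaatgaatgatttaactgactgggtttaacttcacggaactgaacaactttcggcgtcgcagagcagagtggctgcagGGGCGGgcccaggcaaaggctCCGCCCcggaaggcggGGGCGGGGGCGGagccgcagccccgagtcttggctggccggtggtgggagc
Fas: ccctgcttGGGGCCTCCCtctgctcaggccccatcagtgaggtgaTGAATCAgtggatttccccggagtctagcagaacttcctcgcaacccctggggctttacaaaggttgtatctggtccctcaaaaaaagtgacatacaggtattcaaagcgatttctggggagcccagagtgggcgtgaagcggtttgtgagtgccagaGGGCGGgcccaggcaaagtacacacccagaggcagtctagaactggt

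Around their GC boxes both sequences share the 18 bases GGGCGGGCCCAGGCAAAG, starting 88 bases before the start of *Tnfrsf12a* and 47 before that of *Fas*. Of the 33469 promoters, 2 held this stretch, namely those of *Tnfrsf12a* and *Fas* themselves. The next longest stretch shared by any pair of the 8 members with a promoter sequence had 11 bases. The stretch of 18 bases was noticed after the values had been seen and is given as a description. Of the members not past the test, *Ltb* had an NF-kB match 25 to 16 bases before its start, and *Tnfrsf1b* had an AP-1 match. GC boxes occurred in 4 of the 8 members with a promoter sequence, *Tnf* and *Tnfrsf1b* among them. These letters were thus not limited to members that rose. *Tnfrsf1b* also had the interferon-response (ISRE) core (3.41% of promoters). *Tnfsf13b* had that core too. *Tnfsf10* had no full match to the core, but shared bases that overlap it, counted on either strand. These were TTCACTTTC with *Tnfrsf1b* (0.514% of promoters) and TTCACTTTCA with *Tnfsf13b* (0.125%).

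Neither receptor of TNF passed the test. *Tnfrsf1a* encodes TNFR1, the death domain receptor found on most cells. It read 10.76, 11.14 and 10.88 in controls and 11.36, 11.27 and 11.12 after ischemia, the groups touching where control 68 exceeded rat 66. The difference was 0.32 (SE 0.15, 95% interval -0.013 to 0.66, adjusted p = 0.11).

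*Tnfrsf1b* encodes TNFR2, which binds TRAF2 and responds best to membrane-bound TNF. It read 11.33, 11.49 and 11.70 in controls and 11.37, 11.61 and 11.45 after ischemia, with all ischemic values inside the control range. The difference was -0.027 (SE 0.14, 95% interval -0.36 to 0.31, adjusted p = 0.896). *Tnfrsf1b* minus *Tnfrsf1a* within each rat, which can show unequal change but compares no levels, was 0.57, 0.35 and 0.82 in controls and 0.013, 0.34 and 0.33 after ischemia. The mean of this within-rat difference went from 0.58 ± 0.24 (SD, n = 3) to 0.23 ± 0.19 (SD, n = 3), a change of -0.35 with groups apart by less than 0.01, and the two-sided exact permutation test gave p = 0.1, the smallest that 3 against 3 rats allows.

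*Cd40* encodes the receptor through which T cells activate macrophages and other antigen-presenting cells. It read 10.51, 10.03 and 10.71 in controls and 10.73, 10.44 and 10.35 after ischemia. Control 68 was lowest and rats 64 and 69 were highest, so the groups ran through each other. The difference was 0.09 (SE 0.20, 95% interval -0.37 to 0.55, adjusted p = 0.739), and its sign turned without control 68 (-0.10) or ischemia 64 (-0.02).

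The rest of the superfamily was sparser on this array. Of 13 other ligands 8 had a probe set and 2 were bright enough to test, and neither was called. *Tnfsf12* (TWEAK), the ligand of Fn14, had a difference of 0.18 (SE 0.24, adjusted p = 0.573), and *Tnfsf13* (APRIL), a B-cell factor, one of -0.42 (SE 0.18, adjusted p = 0.101). Fas ligand (*Faslg*), with means of 5.24 in controls and 5.23 after ischemia, and CD40 ligand (*Cd40lg*), with 5.02 and 4.78, stayed under the low-signal limit in these cells. Both were singled out after their values were seen, as the partners of *Fas* and *Cd40*.

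Of 21 other receptors 14 had a probe set and 8 were tested. Of these 1 rose and 1 fell, beside 16.8% higher and 5.99% lower of all tested genes. On arrays recentred on ribosomal protein genes 1 rose and 2 fell. *Tnfrsf21* encodes DR6, a death domain receptor known from neurons and lymphocytes. It read 11.01, 10.39 and 11.0002 in controls and 12.35, 12.41 and 12.63 after ischemia. The groups were well apart, and the rise was 1.66 (SE 0.19, adjusted p = 0.000763), or 3.16-fold. *Tnfrsf25* encodes DR3, the receptor of TL1A, known from T cells. It read 9.44, 10.35 and 9.90 in controls and 8.01, 6.56 and 6.68 after ischemia. All ischemic rats were lower, rats 65 and 66 below the background level as for *Tnfsf10*. The gene fell by 2.82 as measured (SE 0.39, adjusted p = 0.00143). With those 2 arrays held at that level its mean was at least 3.94-fold lower, a bound that again leaves out the spread between rats. *Tnfrsf25* is among the genes the study lists from these same arrays, so its change is not independent evidence. The levels of *Cd3e*, *Cd3g* and *Cd3d* are given beside *Tnfsf10*. *Relt*, of the highest mean among those not past the test, had a difference of 0.04 (SE 0.16, adjusted p = 0.851), and *Ltbr*, the lymphotoxin beta receptor, one of 0.67 (SE 0.17, adjusted p = 0.0158). *Tnfrsf9*, the partner of *Tnfsf9*, was too dim to test, with means of 5.58 in controls and 6.45 after ischemia. *Tnfrsf11b* (osteoprotegerin), chosen after its values were seen, read 9.05 in control 63 and at most 5.92 in any other rat, and was not tested. Control 63 is the rat that stood apart on *Cldn5* and *Aqp4*, and the part of vessel or glial RNA in this value was not tested.

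**Figure D3:**
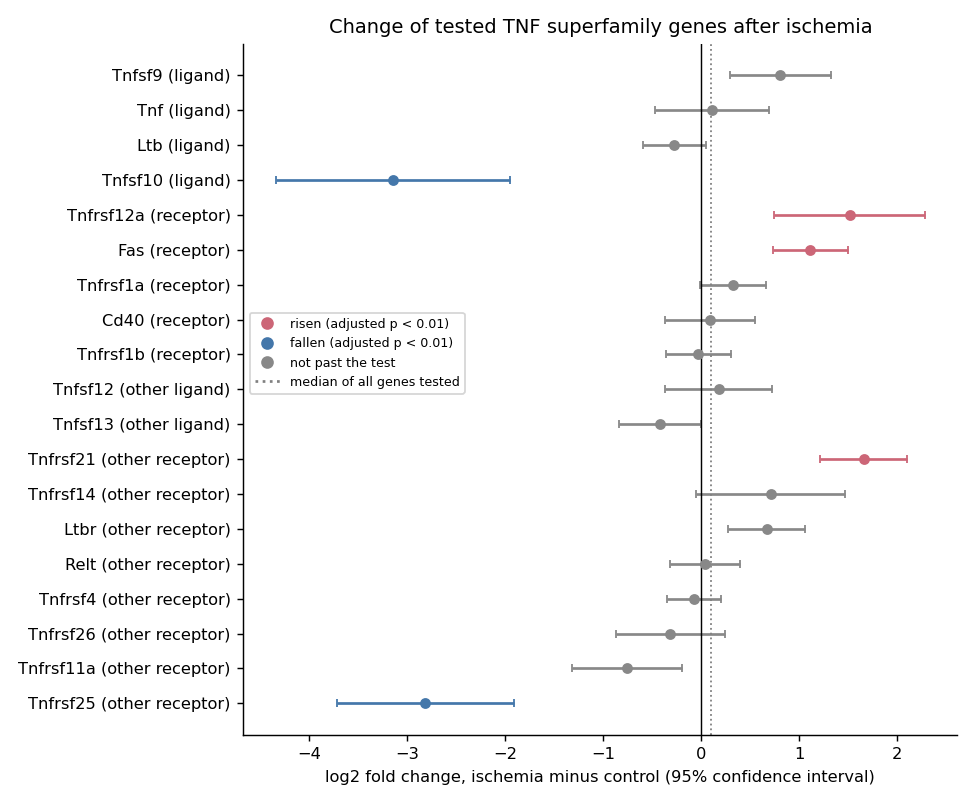
Log2 fold change (ischemia minus control, horizontal axis) with its 95% confidence interval for the 19 tested TNF superfamily genes, the 9 members first and then other ligands and receptors. *Tnfsf10* and *Tnfrsf25* lie at -3.15 and -2.82, *Tnfrsf21*, *Tnfrsf12a* and *Fas* lie at 1.66, 1.52 and 1.12, and the dotted line is the median of all tested genes, 0.105.

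Among adaptors and kinases that sit next to these receptors, 3 of 24 tested genes rose and none fell, beside 16.8% higher and 5.99% lower of all tested genes, with a median difference of 0.10 against 0.105. On arrays recentred on ribosomal protein genes 1 was higher and 1 lower. *Ripk2*, a kinase best known downstream of NOD receptors, rose by 1.68 (SE 0.22, adjusted p = 0.00117), from means of 9.20 to 10.87. *Traf3*, an adaptor of CD40 and the lymphotoxin beta receptor that restrains non-canonical NF-kB, rose by 1.18 (SE 0.21, adjusted p = 0.00396). *Chuk*, the IKK-alpha kinase, rose by 0.76 (SE 0.12, adjusted p = 0.00241). *Ripk2* passed whichever rat was left out; *Traf3* did not pass without control 63 (adjusted p = 0.0126), control 69 (0.0126), ischemia 65 (0.0189) or ischemia 66 (0.0159), nor *Chuk* without control 69 (0.0105) or ischemia 65 (0.0164). On the recentred arrays *Traf3* was at 0.75 (adjusted p = 0.0204) and *Chuk* at 0.34 (0.311), and *Ripk2* still passed. The brightest not past the test were *Map3k8* (TPL2), at 0.20 (SE 0.21), and *Traf6*, at -0.21 (SE 0.25).

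Of 14 tested inhibitors of TNF and NF-kB signalling 2 rose and none fell, beside the same 16.8% and 5.99% of all tested genes, with a median of 0.07. *Tnip2* (ABIN-2), a partner of A20 and TPL2, rose by 1.08 (SE 0.15, adjusted p = 0.00134), reading 9.99, 10.07 and 10.31 in controls and 11.23, 11.35 and 11.03 after ischemia. *Cflar* (c-FLIP), which blocks caspase-8 at death receptors, rose by 0.92 (SE 0.12, adjusted p = 0.00117), reading 11.83, 11.83 and 11.98 in controls and 12.83, 12.84 and 12.73 after ischemia. Neither pair of groups overlapped, and neither call was lost without 1 rat; both were lost on arrays recentred on ribosomal protein genes, with 0.65 (adjusted p = 0.0391) for *Tnip2* and 0.49 (0.114) for *Cflar*. *Tnfaip3* (A20), the ubiquitin editor that TNF itself induces, did not pass, with 0.06 (SE 0.21, adjusted p = 0.837), nor did *Nfkbiz*, with -0.11 (SE 0.23, adjusted p = 0.734).

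Of 10 tested effectors of death downstream of these receptors 3 rose and none fell, beside 16.8% and 5.99% of all tested genes, with a median of 0.37. The count of 3 was 0 on arrays recentred on ribosomal protein genes and 1 with no low-signal filter. *Ripk3*, the kinase of necroptosis, read 9.89, 9.78 and 10.17 in controls and 11.28, 11.16 and 11.27 after ischemia. All ischemic rats were above all controls, and the rise was 1.29 (SE 0.14, adjusted p = 0.000636). *Bak1*, a pore-forming protein of mitochondria, rose by 1.06 (SE 0.21, adjusted p = 0.00535), and *Diablo*, which relieves caspases of their inhibitors, by 0.70 (SE 0.15, adjusted p = 0.00822). *Ripk3* passed whichever rat was left out and with no low-signal filter, but not on the recentred arrays (0.86, adjusted p = 0.0132), where *Bak1* was at 0.63 (0.0635) and *Diablo* at 0.27 (0.36). *Diablo* passed only with all 6 rats or without ischemia 64, its adjusted p being 0.0221 without control 63, 0.0126 without control 68, 0.0248 without control 69, 0.0407 without ischemia 65 and 0.0328 without ischemia 66; *Bak1* likewise failed without each of the same rats, at 0.0215, 0.0116, 0.0211, 0.0233 and 0.0206. *Faf1*, a Fas-binding protein, had 0.46 (SE 0.15, adjusted p = 0.0353) and *Apaf1*, the apoptosome scaffold, -0.39 (SE 0.17, adjusted p = 0.101).

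Genes that act on TNF mRNA or on the TNF protein had a median difference of -0.00058, with 2 of 18 higher and 1 lower, beside 16.8% and 5.99% of all tested genes; 3 were lower with quantile normalization repeated and 0 with no low-signal filter, where *Rhbdf1* had an adjusted p of 0.0104. *Litaf*, named as an LPS-induced factor for *Tnf* and a protein of late endosomes, read 11.35, 11.50 and 11.71 in controls and 13.48, 13.81 and 13.97 after ischemia. The groups were far apart, and the rise was 2.23 (SE 0.17, adjusted p = 0.000188), or 4.70-fold. *Rhbdf2* and *Rhbdf1* encode iRhom2 and iRhom1, which bring the TNF-shedding protease ADAM17 to the cell surface, and 1 rose while the other fell. *Rhbdf2*, the form that dominates in myeloid cells, read 8.98, 9.44 and 9.43 in controls and 10.19, 10.80 and 10.78 after ischemia, and rose by 1.31 (SE 0.21, adjusted p = 0.00242; 0.012 without ischemia 65). *Rhbdf1* read 8.80, 8.78 and 8.93 in controls and 8.33, 8.18 and 7.87 after ischemia, and fell by 0.71 (SE 0.15, adjusted p = 0.00751). The fall of *Rhbdf1* passed only with all 6 rats or without ischemia 64, with an adjusted p of 0.0188 without control 63, 0.0202 without control 68, 0.0281 without control 69, 0.0277 without ischemia 65 and 0.0277 without ischemia 66. *Adam17* itself, named after its value was seen, differed by -0.0032 (SE 0.17, adjusted p = 0.989). *Zfp36* (tristetraprolin), which speeds decay of *Tnf* mRNA, differed by -0.12 (SE 0.26, adjusted p = 0.727) and *Zfp36l1* by -0.27 (SE 0.30, adjusted p = 0.506).

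Of 23 tested NF-kB subunits and target genes 7 rose and 1 fell, beside 16.8% and 5.99% of all tested genes, with a median of 0.49. Recentring on ribosomal protein genes gave 3 higher and 2 lower, and no low-signal filter 4 higher and 1 lower. *Il6*, an inflammatory cytokine, read 5.17, 4.78 and 6.58 in controls and 10.76, 10.33 and 9.93 after ischemia. Controls were below the background level and all ischemic rats well above it. The rise was 4.83 as measured (SE 0.44, adjusted p = 0.00036), and at least 5.503-fold in the means with controls held at that level. *Mmp9*, a gelatinase that is also on the granulocyte marker list, read 5.99, 5.57 and 6.58 in controls and 7.89, 10.24 and 8.59 after ischemia. It rose by 2.86 as measured (SE 0.54, adjusted p = 0.00474), and at least 2.04-fold in the means with controls held at the background level. *Il6* and *Mmp9* entered the test only through their ischemic arrays, so their place in the count of 7 depends on the group where they are high. The call of *Mmp9* was lost without control 63 (adjusted p = 0.0215), control 68 (0.0231), control 69 (0.0103) or ischemia 66 (0.0112), with no low-signal filter (0.0115) and with robust moderation (0.0114), and the part of granulocytes in it was not tested. *Ptgs2* (cyclooxygenase-2) rose by 1.81 (SE 0.37, adjusted p = 0.00677) and *Sod2* (mitochondrial superoxide dismutase) by 1.38 (SE 0.25, adjusted p = 0.00374). *Ptgs2* did not pass in 9 of 17 alternatives. Among the 9 were the fits without control 63 (0.0177), ischemia 64 (0.0118), ischemia 65 (0.0241) and ischemia 66 (0.0198). They also held the fits with no low-signal filter (0.0151) and on the recentred arrays (0.0112). *Sod2* did not pass without control 63 (0.0151), control 68 (0.0177), ischemia 65 (0.0169) or ischemia 66 (0.0126). The gene that fell, named outside the rule, was the interferon-induced chemokine *Cxcl10*, at 10.96, 11.12 and 11.84 in controls and 10.17, 10.17 and 10.04 after ischemia, by 1.18 (SE 0.22, adjusted p = 0.00469; 0.0129 without control 68, 0.0177 without ischemia 65 and 0.0175 without ischemia 66). *Cxcl2* and *Il1b*, classical targets of TNF that are bright here, did not pass, with 0.16 (SE 0.23, adjusted p = 0.601) and 0.15 (SE 0.17, adjusted p = 0.493). Genes of the study's own lists from these arrays, *Il6* among them, are not independent evidence.

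**Figure D4:**
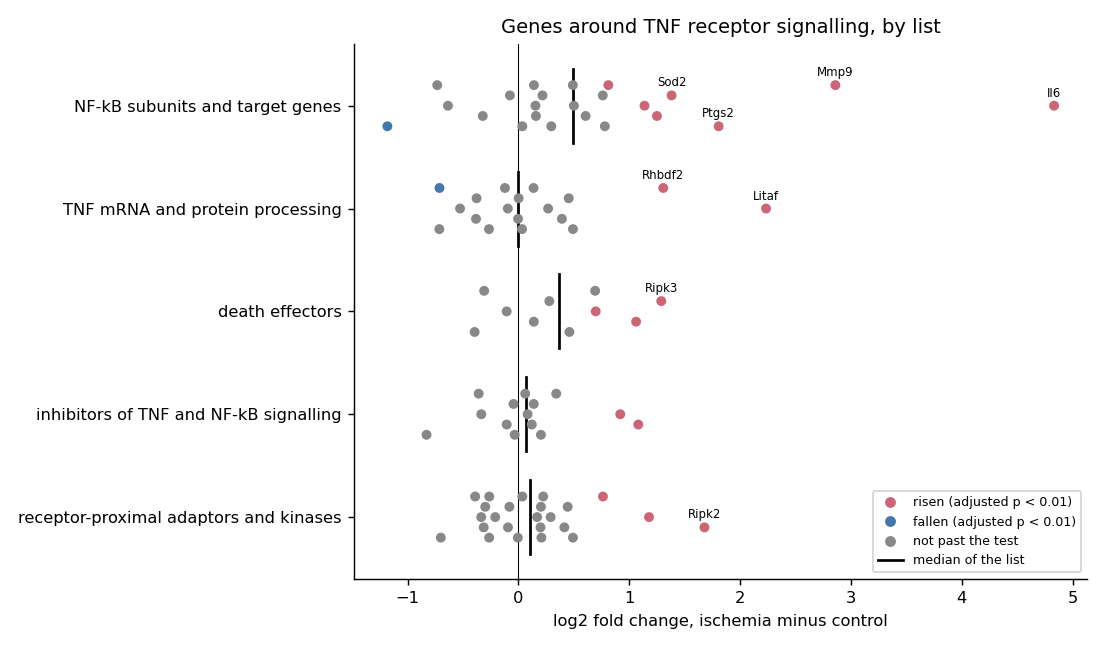
Log2 fold change (ischemia minus control) of each tested gene in 5 lists around TNF receptor signalling (1 point a gene; red risen, blue fallen, grey not past an adjusted p of 0.01; black bars the list medians). The medians are 0.10, 0.07, 0.37, -0.00058 and 0.49 from adaptors at the bottom to NF-kB genes at the top, and *Il6*, whose controls were below the background level, is drawn at its measured 4.83.

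Genes with the profile nearest to each called member were found by the mean absolute difference between profiles over the 6 arrays, each centred on its own mean. For *Tnfsf10* they were *Siglec5* (0.225) and *Syne2* (0.278), both highest in controls and lowest in rat 66. For *Tnfrsf12a* they were *Odc1* (0.133), the enzyme that opens polyamine synthesis, and *Rrp12* (0.133), a ribosome assembly factor. Each of these also had control 69 above the other controls, with *Odc1* at 10.37, 10.17 and 11.30 in controls 63, 68 and 69 and 11.80, 12.11 and 12.09 after ischemia. For *Fas* they were *Ly75* (0.0608), the endocytic receptor DEC-205, and the stress-induced gene *Ddit4* (0.0737). These are likenesses over 6 arrays that also hold the group difference, so any gene of similar change is near.

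**Figure D5:**
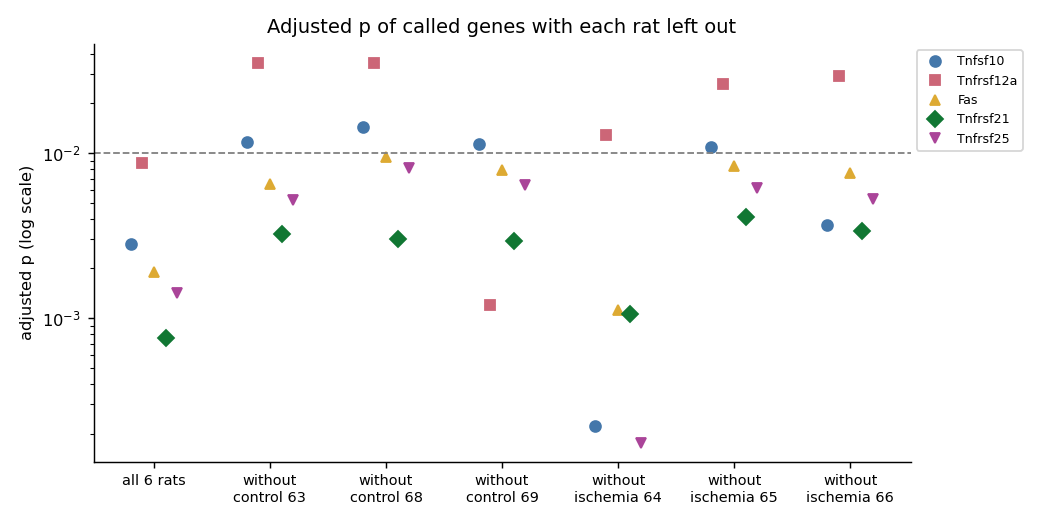
Adjusted p (log scale) of the 5 called TNF superfamily genes with all 6 rats and with each rat left out in turn, the dashed line being the threshold of 0.01. *Fas*, *Tnfrsf21* and *Tnfrsf25* stay under the line throughout over the genes kept with all 6 arrays, the highest value being 0.00941 for *Fas* without control 68, while *Tnfsf10* crosses it 4 times and *Tnfrsf12a* 5 times.

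Of the 5 superfamily genes called, *Fas*, *Tnfrsf21* and *Tnfrsf25* thus passed whichever rat was left out, over the genes kept with all 6 arrays. *Fas* was kept through its 3 ischemic arrays, so without an ischemic rat it would have 2 arrays above the low-signal limit and would not be tested if genes were kept anew. *Tnfrsf21* had a range of 1.46 to 1.76 and adjusted p of 0.00106 to 0.0041 over these fits. *Tnfrsf25* had a range of -3.28 to -2.56 and adjusted p of 0.000176 to 0.00817, and *Fas* one of 0.97 to 1.251 and adjusted p of 0.00112 to 0.00941. The changes of *Tnfsf10* (-3.78 to -2.55) and *Tnfrsf12a* (1.29 to 1.95) kept their direction in every such fit.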

How the data were processed

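The authors extracted RNA from CD11b+CD163+ cells sorted from each rat's right hemisphere, amplified it by a 3' protocol meant for picogram inputs and put it on Affymetrix rat arrays. The deposited values are log2 intensities, 1 per probe set, for which the authors applied RMA (background correction, quantile normalization, summary over probes); the submitters' notes name limma 3.18 and R 3.3.1. Quantile normalization forces like distributions, so a shift of most genes would not show. Of 31099 probe sets, 57 were controls, 20826 named 1 gene symbol, 436 several and 9780 none.

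Each gene was represented by its single-symbol probe set of highest mean over the 6 arrays. It was tested if it lay above 7.156, the 40th percentile over all arrays, in 3 or more of them (9928 of 14217 genes). Ischemia and control (3 rats each, grouped by the labels) were compared with lmFit and eBayes of limma 3.58.1 in R 4.3.3, two-sided, with Benjamini-Hochberg adjustment over all tested genes and no covariate. All probe sets of the members were fitted likewise over all single-symbol probe sets. The within-rat receptor difference had an exact permutation test. The methods name a low-signal and a low-variability filter; the cuts here were set for this work.

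The members and gene lists were chosen with earlier results of these data known. Besides every member, the text names up to 4 called genes of largest change per list, up to 2 of highest mean that were not called, and the 2 nearest profiles of each called member; a few exceptions are said to be so. Marker lists are described by counts and summed levels.

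Promoters are the 250 bases before each RefSeq start in GRCr8; 8 of the 10 members had one, and *Tnfsf9* and *Cd40* did not. The array gives no coordinates. The fit was tested on simulated data. Alternatives covered the filters, probe set choice, scaling, moderation, weights, thresholds and leaving out each rat, with the genes kept over all 6 arrays. For 4 called genes with arrays below the background level, chosen after their values were seen, a bound on the fold holds those arrays at that level. The bound is taken on group means and leaves out the spread between rats. Arrays have no read depth; 3 rats a group set the precision.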

Additional observations from a re-analysis of the deposited data

How the results depend on the processing

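No paired analysis was possible because the groups share no rat numbers. The fall of *Tnfsf10* and the rises of *Tnfrsf12a* and *Fas* kept their direction under every alternative that gave a value; *Fas* was not tested with the filter at the 60th percentile or with the mean of probe sets. The cause of a change was not tested. Leaving out a rat shows only whether a call rests on that rat.

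Of the 2 members called higher, 1 was left with no low-signal filter, with the filter at the 60th percentile, with the mean of probe sets, on arrays recentred on ribosomal protein genes, after a repeated quantile normalization and with robust moderation, and 0 with the log2 fold change beyond 2. *Tnfrsf12a* was the one lost with no filter, repeated quantile normalization and robust moderation, and *Fas* on recentring. Leaving out each rat gave 1 to 2 higher and 0 to 1 lower; 0 lower came without controls 63, 68 or 69 or ischemia 65. Without empirical Bayes moderation 0 members were higher and 0 lower, as were 0 pathway genes and 0 of all genes in either direction, since the lowest adjusted p was 0.0101; 4478 genes and 4 members had an unadjusted p under 0.05.

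Of all genes, 1664 were higher and 595 lower. Recentring on ribosomal protein genes, which moved the median difference from 0.105 to -0.322, gave 399 higher and 1329 lower. Lower genes numbered 931 with quantile normalization repeated and 1309 with array weights. The fold threshold left 162 higher and 58 lower, and an adjusted p under 0.05 gave 2722 and 1377. Leaving out each rat gave 681 to 1564 higher and 166 to 816 lower, the fewest without ischemia 65.

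Of the pathway lists' genes, 18 were higher and 3 lower. Recentring on ribosomal protein genes gave 7 and 7, the fold threshold 3 and 1, and an adjusted p under 0.05 gave 28 and 8. Lower genes numbered 5 with the mean of probe sets, 7 with quantile normalization repeated and 7 with array weights. Leaving out each rat gave 8 to 17 higher and 1 to 7 lower: 9 higher without control 63, 11 without control 69, 8 without ischemia 65 and 9 without ischemia 66.

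Signs turned for uncalled members only. On recentring to ribosomal protein genes *Tnf* was at -0.32, *Tnfrsf1a* at -0.10 and *Cd40* at -0.34. With quantile normalization repeated *Tnf* was at -0.0736 and *Cd40* at -0.0617, and with array weights *Cd40* was at -0.0284. Leaving out each rat gave -0.14 to 0.40 for *Tnf* (negative without ischemia 64), -0.116 to 0.0718 for *Tnfrsf1b* (positive without control 69 or ischemia 64) and -0.104 to 0.236 for *Cd40* (negative without control 68 or ischemia 64). *Tnfsf9* passed with array weights (0.998, adjusted p = 0.00541) and under no other alternative at an adjusted p under 0.01. Of the members, *Tnfsf10* and *Fas* have values near the background level, which limits what their size says.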
